A study of Mus musculus with 6 samples.

Results

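The 31 genes described here encode the DNA replication machinery and its closest helpers: the MCM helicase, its loaders and activators, the polymerase alpha-primase, the sliding clamp and its loader, the enzymes that make deoxynucleotides, S phase repair and checkpoint factors, and regulators of S phase entry. They were chosen by name, and every one had at least 1 probe set that the platform annotation assigns to that gene alone. They are 31 of 18193 genes measured. Pancreatic islets of 12-week-old male C57Bl6 mice were profiled on Affymetrix mouse expression arrays, with 3 arrays of control islets (Flox) and 3 arrays of islets from mice with a Tead1 beta cell-specific KO (Tead1KO). The sources used here name neither the Cre driver nor the floxed exons, and do not say whether the control mice carried Cre. The design speaks of 3 flox mice, but no label ties an array to a mouse, so the p-values may measure only technical spread between samples. Tead1 is the DNA-binding partner of the Hippo pathway coactivators Yap1 and Wwtr1, which are best known for promoting growth and proliferation.

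Before S phase, the origin recognition complex, Cdc6 and Cdt1 load the ring of Mcm2 to Mcm7 onto DNA. Cdc45 and the GINS complex then turn that ring into the active helicase, primase and polymerase alpha start new strands, and the clamp Pcna, placed by the replication factor C complex, holds the other polymerases on the template. Transcription of many of these genes is switched on in late G1 by E2F factors when the retinoblastoma protein is phosphorylated. Adult beta cells are mostly quiescent, so replication transcripts in islet samples can come from dividing cells of any cell type present and from the level that resting cells keep. Their source was not tested here. In whole islets, fewer cells of a type and less RNA per cell cannot be told apart.

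An E2F motif was searched in the promoters of these genes, because E2F control is the feature for which the family is best known and because it was not used to choose them. The window ran from 250 bases before to 50 bases after each RefSeq transcription start (build GRCm38.p6), and 25 of the 31 genes had one. The motif was spelled TTTCCCGC, TTTCGCGC, TTTGCCGC or TTTGGCGC and searched on both strands, where one spelling can overlap another. A match was present in 11 of the 25 genes (44%), against 2.6% of 27025 genes with a promoter window. The CCAAT box, searched as CCAAT on both strands, was present in 16 of the 25 (64%), against 41.1% of all genes. The following stretches upstream of the start show where the matches lie in helicase, polymerase, licensing and chromatin genes, with the matches in capitals and the bases given 5′ to 3′ on the strand of the gene.
Mcm5 (chr8:75109340-75109379, plus strand): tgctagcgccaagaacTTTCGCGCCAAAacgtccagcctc
Mcm6 (chr1:128359792-128359831, minus strand): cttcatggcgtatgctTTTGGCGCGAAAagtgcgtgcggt
Mcm7 (chr5:138172025-138172064, minus strand): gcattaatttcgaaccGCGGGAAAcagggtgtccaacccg
Pola1 (chrX:93632270-93632309, minus strand): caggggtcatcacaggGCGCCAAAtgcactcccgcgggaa
Cdc6 (chr11:98907997-98908036, plus strand): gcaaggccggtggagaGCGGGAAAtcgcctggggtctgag
Hells (chr19:38930912-38930951, plus strand): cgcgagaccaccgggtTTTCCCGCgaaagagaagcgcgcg
In Mcm5 and Mcm6 a match on each strand overlaps the other, so the capitals run over 12 bases. The other genes with a match were Mcm3, Cdt1, Clspn, Uhrf1 and Dtl. A match is a description of these letters and says nothing of whether a factor binds there.

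Array quality varied. Bacterial transcripts added to each sample as hybridization controls read 10.80 to 12.03 (log2) in Flox and 11.02 to 13.31 in Tead1KO, highest in Tead1KO replicate 3, which also had the narrowest interquartile range of all probe sets (2.66, against 2.99 to 3.32 in the other 5 arrays). On every array the actin 3' probe set read far above the 5' probe set, a limit on RNA or target quality. This actin 3'/5' difference was 3.22 to 3.38 (log2) in Flox and 3.09 to 3.31 in Tead1KO. Bacterial probe sets with no added transcript read up to 4.70, which served as the upper limit of background. Islet hormone transcripts were bright: Ins2, Iapp, Gcg, Sst and Ppy read between 13.89 and 15.71 on every array. Acinar enzymes were also bright, and the mean of 5 of them relative to Flox ranged from -1.48 to 0.91 in Flox and from -1.30 to 0.76 in Tead1KO. Tead1 itself read 6.99 to 7.40 in Flox and 5.95 to 7.49 in Tead1KO (difference -0.49, limma adjusted p = 0.774). Whether its probe set lies inside the deleted exons is unknown, so this value does not check the labels.

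No replication gene passed the test in Tead1KO islets. Of the 31 genes, 0 had a Benjamini-Hochberg adjusted p under 0.05 in limma's fit over all genes, where 0.517% of all genes passed, and 0 had an unadjusted p under 0.05, where 7.41% of all genes did (3.08% above 0 and 4.33% below). The differences, given throughout as Tead1KO minus Flox on the log2 scale, ran from -0.38 for Tipin to 0.57 for Fen1. Of the 31, 23 lay above 0, against 48.9% of all genes, and the median was 0.11, against -0.0074 over all genes. The 3 Tead1KO arrays lay wholly above the 3 Flox arrays in 3 genes, Mcm2, Exo1 and Clspn, and wholly below them in 0. This is 9.68% of the genes, against 13.1% of all genes in either direction and 5.8% upward or 7.27% downward. In 25 of the 31 genes (80.6%, against 86.3% of all genes), the 95% confidence interval of the difference excluded a 2-fold change either way. The 6 genes whose interval reached past a 2-fold change were Mcm5, Rrm2, Exo1, Fen1, Rfc4 and Dtl. By their group means, Tyms, Cdc6 and Ccne2 read within background in both groups, and Exo1 read within it in Flox, so a change in these 4 genes could hardly be seen.

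**Figure D1:**
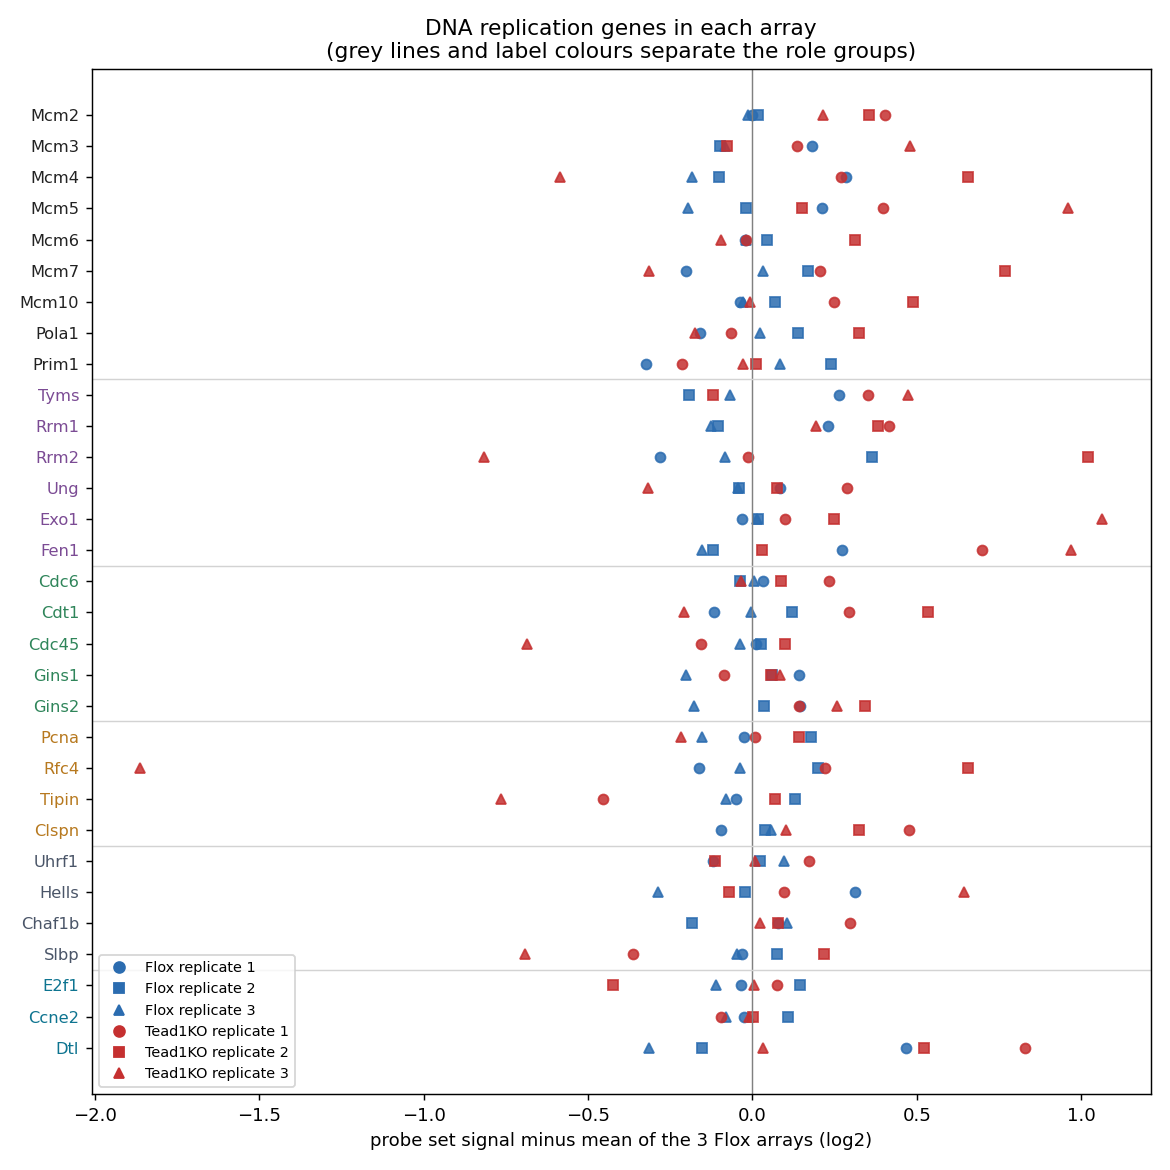
Signal of each replication gene on each array relative to the mean of the 3 Flox arrays (log2, x axis), with genes in rows; Flox arrays are blue, Tead1KO arrays are red, and symbols show the replicate number. The red points are separate from the blue in Mcm2, Exo1 and Clspn, and Tead1KO replicate 3 lies far to the left in Rfc4.

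All 6 subunits of the replicative helicase, the Mcm2 to Mcm7 ring that unwinds DNA ahead of the fork, had differences above 0. Their median was 0.20. All 6 also lay above 0 after quantile normalization (median 0.32) and after median centring (median 0.14). Without _x_at and _s_at probe sets, whose probes can match several transcripts, the median was 0.09. Each of the 6 genes missed the test. Without Tead1KO replicate 2, Mcm4 (-0.16), Mcm6 (-0.06) and Mcm7 (-0.05) lay below 0, as did Mcm3 (-0.03) once the hybridization controls entered the fit and Mcm6 (-0.04) with probe sets averaged. Mcm2 had the smallest SD of the 6 in each group, 0.016 for Flox and 0.099 for Tead1KO: it read 9.03, 9.05 and 9.02 in Flox and 9.43, 9.39 and 9.24 in Tead1KO. The groups did not overlap, and the difference was 0.32 (SE 0.14, 95% interval -0.0043 to 0.65, limma adjusted p = 0.669), or 1.25-fold. This is an _s_at probe set. The other Mcm2 probe set, which was above background, differed by 0.05 with overlapping arrays. Mcm5 read 6.96, 6.73 and 6.55 in Flox and 7.15, 6.90 and 7.71 in Tead1KO. Its Tead1KO replicate 2 lay inside the Flox range, and the difference was 0.50 (SE 0.24, interval -0.042 to 1.05, limma adjusted p = 0.695). Mcm5 is read by an _x_at probe set, whose probes can match several transcripts, and its 3 highest arrays were the 3 with the highest hybridization controls. This order was seen in 5 of the 31 genes (16.1%, against 14.3% of all genes), the others being Mcm3, Tyms, Fen1 and Hells. The Mcm5 difference was 0.20 with the hybridization controls as a covariate and 0.27 without Tead1KO replicate 3. With suffixed probe sets left out it was also 0.20, but from a probe set within background in both groups (means 4.31 and 4.51). Mcm7 read 8.91, 9.28 and 9.14 in Flox and 9.31, 9.87 and 8.79 in Tead1KO, so that the highest and the lowest of its 6 values were both Tead1KO arrays.

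The same spread was seen in Mcm4, which read 7.46, 7.07 and 6.99 in Flox and 7.44, 7.83 and 6.59 in Tead1KO (difference 0.11, interval -0.61 to 0.84). Mcm6 read 8.12, 8.19 and 8.13 in Flox and 8.13, 8.46 and 8.05 in Tead1KO, and its difference of 0.07 had an interval of -0.32 to 0.45. Mcm3 differed by 0.18 (interval -0.27 to 0.62). In Mcm4, Mcm6 and Mcm7, Tead1KO replicate 2 was the highest of the 6 arrays and Tead1KO replicate 3 the lowest, while in Mcm3 and Mcm5 Tead1KO replicate 3 was the highest.

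Of the factors that act with the helicase when synthesis starts, Mcm10, which helps to activate the loaded ring and brings in polymerase alpha, read 4.996, 5.10 and 5.01 in Flox and 5.28, 5.52 and 5.03 in Tead1KO. Only Tead1KO replicate 3 lay inside the Flox range (difference 0.24, SE 0.16, interval -0.13 to 0.62). Pola1, the catalytic subunit of polymerase alpha, read close to background, between 4.76 and 5.26 over the 6 arrays, and differed by 0.03 (interval -0.37 to 0.43). Prim1, the catalytic primase subunit that makes the RNA primer, read 8.20, 8.76 and 8.61 in Flox and 8.31, 8.53 and 8.50 in Tead1KO. Its Tead1KO arrays lay inside the Flox range, and the difference was -0.08 (interval -0.52 to 0.36). Of the 9 MCM and polymerase genes, 8 lay above 0, and their median difference was 0.18.

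The enzymes of deoxynucleotide synthesis and of repair had a median difference of 0.28 over 6 genes. Tyms read within background in both groups, and Exo1 did so in Flox. All 6 genes lay above 0. Leaving out 1 array put 4 to 6 of them above 0: Rrm2 was at -0.41 without Tead1KO replicate 2 and at -0.08 without Flox replicate 1, and Ung at -0.12 without Tead1KO replicate 1. Ung also lay below 0 after median centring (-0.05), and Tyms was at -0.0038 with the hybridization controls as a covariate. Rrm1, the large subunit of ribonucleotide reductase, which turns ribonucleotides into deoxyribonucleotides, read 8.19, 7.85 and 7.83 in Flox and 8.38, 8.34 and 8.15 in Tead1KO. The groups overlapped only between Flox replicate 1 and Tead1KO replicate 3, and the difference was 0.33 (SE 0.17, interval -0.062 to 0.72, limma adjusted p = 0.724). Rrm2, the small subunit, which is made mainly in S phase, read 6.90, 7.55 and 7.10 in Flox and 7.17, 8.20 and 6.37 in Tead1KO. Its Tead1KO arrays spread over a wider range than the Flox arrays on both sides (SD 0.92 against 0.33), and its difference was 0.06 (interval -0.92 to 1.04). Tyms, thymidylate synthase, read 4.21 to 4.66 in Flox and 4.28 to 4.87 in Tead1KO. Most of these values are within background.

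Fen1, the flap endonuclease that trims Okazaki fragments and acts in base excision repair, had the largest difference of the 31 genes. It read 11.49, 11.10 and 11.06 in Flox and 11.92, 11.25 and 12.19 in Tead1KO (difference 0.57, SE 0.25, interval -0.0072 to 1.14, limma adjusted p = 0.669). Tead1KO replicate 2 lay inside the Flox range. This probe set carries the _x_at suffix, which marks probes that can match several transcripts, and the 3 arrays with the highest hybridization controls were also its 3 highest. That order was seen in 14.3% of all genes. With these controls as a covariate the Fen1 difference was 0.22 (limma adjusted p = 0.721), within the 3 arrays of high control signal it was 0.56, and within the 3 of low signal 0.17. It was 0.83 without Tead1KO replicate 2 (limma adjusted p = 0.0661), 0.36 without replicate 3 and 0.36 with suffixed probe sets left out. The last value came from a probe set within background in Flox. Exo1, a mismatch repair exonuclease, was within background in Flox at 4.59 to 4.64 and read 4.72, 4.87 and 5.68 in Tead1KO, so that Tead1KO replicate 3 carried most of its difference of 0.47. Ung, which removes uracil from DNA, read 6.51 to 6.63 in Flox and 6.23 to 6.84 in Tead1KO and differed by 0.01 (interval -0.42 to 0.45).

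**Figure D2:**
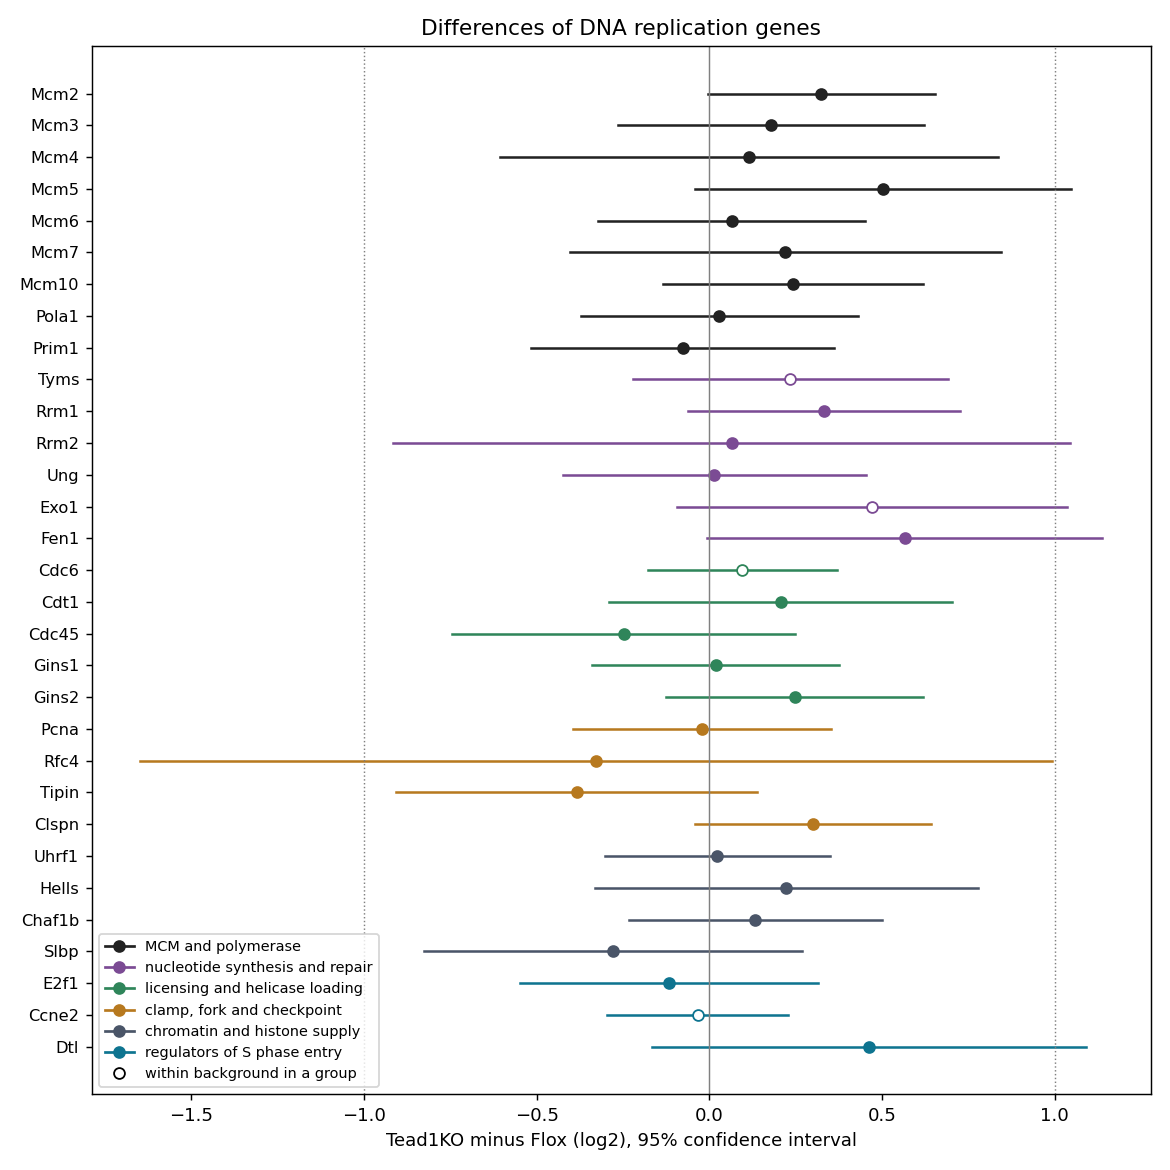
Difference between Tead1KO and Flox (log2, x axis) of each replication gene with its 95% confidence interval; colours give the role group, open points are genes within background in at least 1 group, and dotted lines mark a 2-fold change. Every interval includes 0, and that of Rfc4 is the widest (-1.65 to 0.99).

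MCM and polymerase genes were then set beside nucleotide synthesis and repair genes. The median difference of the first group was lower by 0.10 on the log2 scale (difference of the medians -0.105, no test). The median of the second group fell between Tyms (0.23), within background in both groups, and Rrm1 (0.33). Exo1 (0.47), on the upper side, was within background in Flox, so the gap leaned on genes in which a change could hardly be seen. Averaged over its genes and relative to Flox, the MCM and polymerase group read 0.15, 0.33 and 0.05 in Tead1KO replicates 1 to 3, and -0.01, 0.05 and -0.04 in the Flox arrays. The nucleotide and repair group read 0.31, 0.27 and 0.26 in Tead1KO and 0.09, -0.01 and -0.08 in Flox. The first minus the second was -0.16, 0.06 and -0.21 in the Tead1KO arrays and -0.10, 0.06 and 0.03 in the Flox arrays. These ranges overlapped. Without Tead1KO replicate 2 the MCM and polymerase median was -0.05 and the difference of the medians -0.41. Without Tead1KO replicate 3 the difference of the medians was 0.0012, so the gap between the role groups rested on single arrays.

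**Figure D3:**
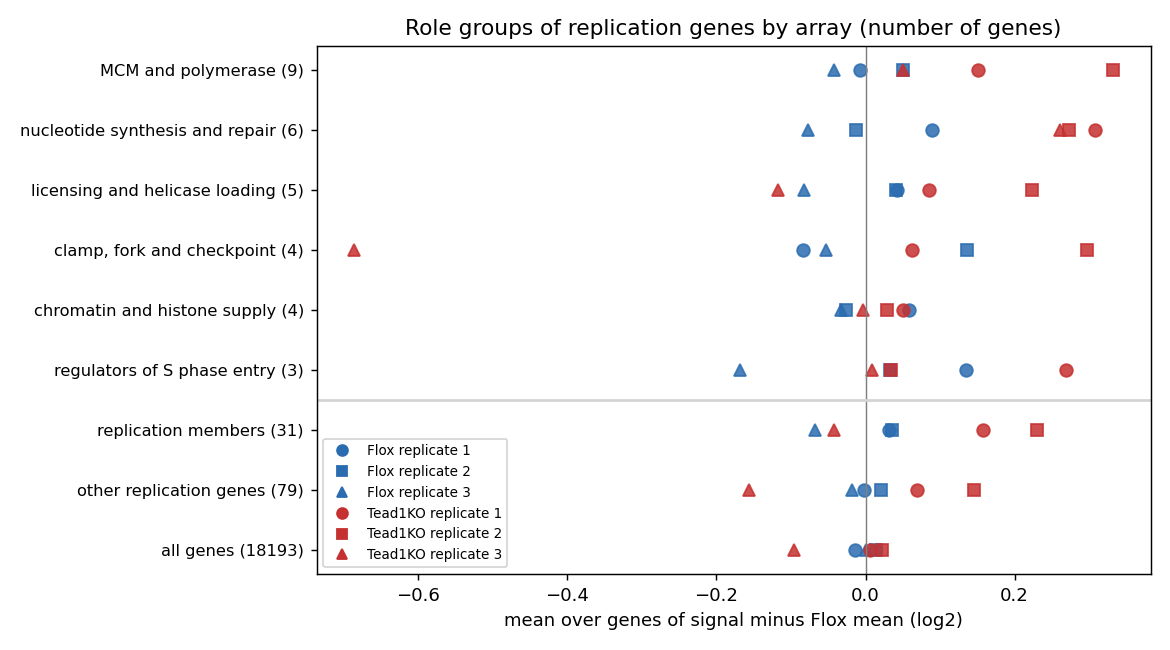
Mean over the genes of each role group of the signal relative to the Flox mean (log2, x axis), with 1 point per array, for the 6 role groups, all 31 replication genes, 79 other replication genes and all genes, with Flox in blue and Tead1KO in red. Tead1KO replicate 3 lies apart from the other arrays in the clamp, fork and checkpoint group, at -0.69.

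Of the 5 licensing and helicase activation genes, 4 lay above 0, with a median of 0.10, which was 0.02 after quantile normalization and 0.04 without Tead1KO replicate 2. Cdt1, which brings the MCM ring to origins, read 7.75, 7.99 and 7.87 in Flox and 8.16, 8.40 and 7.66 in Tead1KO. Tead1KO replicates 1 and 2 were above every Flox array and replicate 3 below, and the difference was 0.21 (SE 0.21, interval -0.29 to 0.70). Cdc6, the other loader, read 3.75 to 4.02 over all arrays, within background. Cdc45, which joins the MCM ring in the active helicase, read 6.54, 6.56 and 6.50 in Flox and 6.38, 6.63 and 5.85 in Tead1KO (difference -0.25, interval -0.74 to 0.25). The GINS subunits Gins1 and Gins2, which complete that helicase, differed by 0.02 (interval -0.34 to 0.38) and 0.25 (interval -0.13 to 0.62). Gins2 read 6.80, 6.69 and 6.48 in Flox and 6.80, 7.001 and 6.92 in Tead1KO, and only Tead1KO replicate 1 lay inside the Flox range.

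Of the 4 genes of the clamp, the fork and its checkpoint, 1 lay above 0, the median was -0.18, and Tipin and Rfc4 had the lowest differences of the 31 genes. Without Tead1KO replicate 3, 3 genes lay above 0, with a median of 0.24. With the hybridization controls as a covariate the median was 0.23. Pcna, the sliding clamp, read 10.31, 10.51 and 10.18 in Flox and 10.34, 10.48 and 10.12 in Tead1KO (difference -0.02, interval -0.40 to 0.35). Tipin, a fork protection protein that works with Timeless, read 8.57, 8.75 and 8.54 in Flox and 8.17, 8.69 and 7.86 in Tead1KO. Its Tead1KO replicates 1 and 3 were below every Flox array, and the difference was -0.38 (SE 0.23, interval -0.91 to 0.14, limma adjusted p = 0.765). Rfc4, a subunit of the clamp loader, read 6.20, 6.57 and 6.33 in Flox and 6.59, 7.02 and 4.50 in Tead1KO. Replicates 1 and 2 were above every Flox array and replicate 3 was far below them, so its difference of -0.33 had the wide interval of -1.65 to 0.99. This is an _s_at probe set, and the other probe set of Rfc4, within background in 1 group, differed by 0.26. The Rfc4 difference was 0.44 without Tead1KO replicate 3 and 0.43 after adding the hybridization covariate. Clspn, claspin, which relays the checkpoint signal from stalled forks, read 4.67, 4.80 and 4.82 in Flox and 5.24, 5.08 and 4.86 in Tead1KO. The groups did not overlap but both lay near background (difference 0.30, SE 0.15, interval -0.041 to 0.64, limma adjusted p = 0.707).

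Of the 4 genes that copy chromatin with the DNA or supply histones, 3 lay above 0, with a median of 0.08, which was 0.01 after quantile normalization and -0.00023 without Tead1KO replicate 1. Uhrf1, which brings the maintenance DNA methyltransferase to new DNA, differed by 0.02 (interval -0.30 to 0.35), and Chaf1b, a subunit of the histone chaperone CAF-1, by 0.13 (interval -0.23 to 0.50). Hells, a chromatin remodeller, read 6.67, 6.34 and 6.07 in Flox and 6.46, 6.29 and 7.01 in Tead1KO, with Tead1KO replicate 3 the highest (difference 0.22, interval -0.33 to 0.78). Slbp, which binds the stem-loop of replication-dependent histone transcripts, read 8.37, 8.47 and 8.35 in Flox and 8.03, 8.61 and 7.70 in Tead1KO. As in Tipin, replicates 1 and 3 were below every Flox array and replicate 2 was not (difference -0.28, SE 0.24, interval -0.83 to 0.27).

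Of the 3 regulators of S phase entry, 1 lay above 0, with a median of -0.03, which was 0.04 without Tead1KO replicate 2 and 0.02 without Flox replicate 2. E2f1, an E2F activator, read 7.03, 7.20 and 6.95 in Flox and 7.13, 6.64 and 7.06 in Tead1KO. Its low array was Tead1KO replicate 2, the array on which Mcm4, Mcm6 and Mcm7 were highest, and the difference was -0.12 (interval -0.55 to 0.32). Ccne2, cyclin E2, which drives the G1 to S transition with Cdk2, read 3.77 to 3.97 on all arrays, within background. Dtl, the substrate receptor through which Cdt1 is degraded in S phase, read 6.36, 5.74 and 5.58 in Flox and 6.72, 6.41 and 5.93 in Tead1KO. Tead1KO replicates 1 and 2 were above every Flox array, and the difference was 0.46 (SE 0.27, interval -0.17 to 1.09, limma adjusted p = 0.764).

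The Tead1KO arrays differed from each other more than the Flox arrays did. The SD of the 3 arrays was larger in Tead1KO in 24 of the 31 genes (77.4%, against 76.2% of all genes), and its median was 0.28 in Tead1KO and 0.16 in Flox (0.26 and 0.14 over all genes). Tead1KO replicate 2 lay above every Flox array in 17 of the 31 genes (54.8%, against 28% of all genes) and below every one in 1, E2f1 (3.23%, against 27.9%). Tead1KO replicate 1 lay above every Flox array in 16 (51.6%, against 32.4%) and below in 4 (12.9%, against 29.2%). Tead1KO replicate 3 lay above in 9 (29%, against 34.2%) and below in 12 (38.7%, against 43.8%), close to the shares over all genes. The median difference of the 31 genes was 0.04 without Tead1KO replicate 2 (17 above 0) and 0.17 without replicate 3 (24 above 0). Averaged over the 31 genes, the arrays read 0.16, 0.23 and -0.04 in Tead1KO and 0.03, 0.04 and -0.07 in Flox, relative to the Flox mean.

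The differences were therefore also read separately within the 3 arrays of highest and the 3 of lowest control signal. The high set was not closely matched. Its controls read 12.03 in Flox replicate 1, against 12.18 and 13.31 in Tead1KO replicates 1 and 3. Within the 3 arrays of high control signal (Flox replicate 1 against Tead1KO replicates 1 and 3) the median over the 31 genes was 0.07 and 19 lay above 0. Within the 3 of low signal (Flox replicates 2 and 3 against Tead1KO replicate 2) it was 0.20 and 27 lay above 0. Over all genes the medians were -0.0070 and -0.014, with 8942 and 8599 of 18193 above 0. Each comparison has a single array in 1 group. With 19 and 27 of the 31 above 0, a large overlap of the 2 was already fixed. Both comparisons were above 0 in 16 genes (51.6%, against 21.5% of all genes), among them Mcm2 (0.31 and 0.35), Mcm5 (0.47 and 0.26), Mcm7 (0.15 and 0.67) and Clspn (0.38 and 0.28). They went opposite ways in Mcm4 (-0.44 and 0.80), Rfc4 (-0.66 and 0.57) and Slbp (-0.50 and 0.20). Without Tead1KO replicate 3, 7 of the 31 genes had an unadjusted p under 0.05 (7.96% of all genes did): Mcm2, Mcm7, Mcm10, Rrm1, Cdt1, Clspn and Dtl, all above 0. With the hybridization controls as a covariate, 6 did (8.65% of all genes): Mcm2, Mcm7, Mcm10, Rrm2, Cdt1 and Clspn, all above 0. Without Tead1KO replicate 2, 5 did (23.6% of all genes): Mcm5, Tyms and Fen1 above 0, Tipin and Slbp below. With the level of control signal as a block, a fit added after seeing the data, Fen1 alone did (difference 0.36, 6.69% of all genes). None of the 31 passed after adjustment in these 4 fits, where the smallest limma adjusted p was, in turn, 0.396 (Mcm2), 0.148 (Mcm7), 0.0661 (Fen1) and 0.687 (Fen1).

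Further probe sets add a check on some of these differences. Of the 31 genes, 26 had several probe sets, but only 10 had more than 1 above background, and Tipin had only 1 probe set. The 31 genes were read by 78 probe sets, 41 of them above background in both groups, and 0 of the 78 passed over all probe sets (0.269% of all probe sets did). The median difference of the 41 was 0.07. Of the 78 probe sets, the Tead1KO arrays lay wholly above Flox in 5 and wholly below in 2 (8.97%, against 11.5% of all probe sets). An unadjusted p under 0.05 was found in 2 of the 78, 1 of E2f1, given below, and 1 of Dtl. The Dtl probe set was within background in both groups (difference 0.31, no overlap, limma unadjusted p = 0.016, adjusted p = 0.609). Of 10 genes with more than 1 probe set above background, 7 had all of these on the same side of 0. Mcm7, with 4 such probe sets, differed by 0.22, 0.03, 0.16 and 0.30. The brightest and the other probe set of Mcm2 differed by 0.32 and 0.05. Those of Mcm6 differed by 0.07 and -0.32, and those of Cdc45 by -0.25 and 0.12. For E2f1, the second probe set read 6.93, 7.13 and 6.91 in Flox and 6.72, 6.66 and 6.18 in Tead1KO, with no overlap (difference -0.47, unadjusted p = 0.0415, limma adjusted p = 0.807 over all probe sets), while the third differed by 0.13. The second probe set of Fen1 had a mean of 4.62 in Flox, which is within background, and of 4.98 in Tead1KO. Of the 31 brightest probe sets, 8 carry an _x_at or _s_at suffix, with a median difference of 0.23, against 0.07 for the other 23. Over all genes the order was the other way, with medians of -0.024 for suffixed and -0.0053 for other probe sets.

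**Figure D4:**
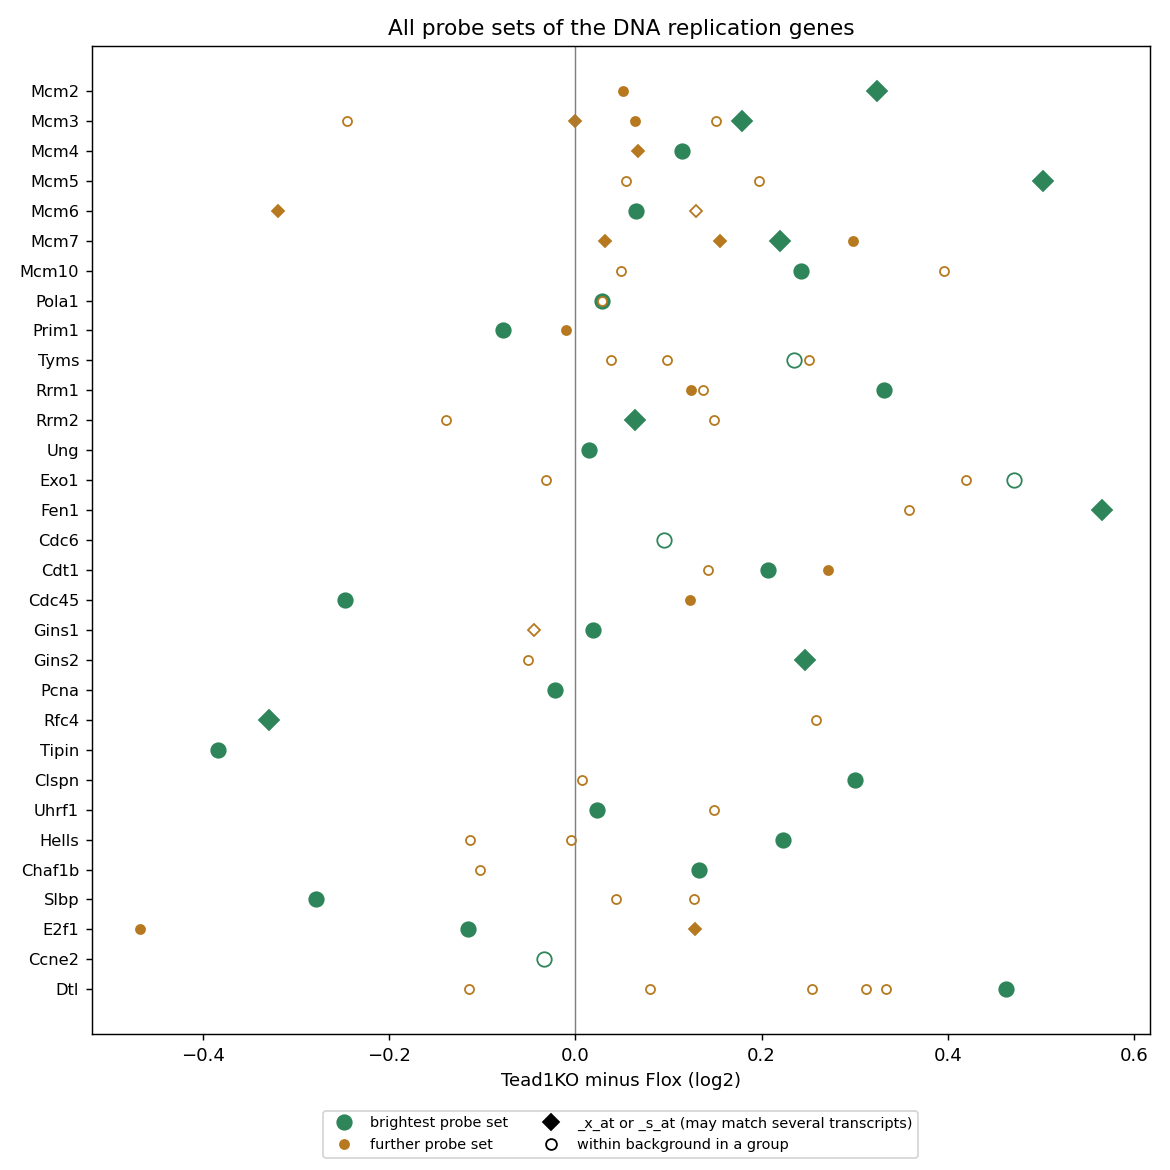
Difference between Tead1KO and Flox (log2, x axis) of all 78 probe sets of the replication genes; large green symbols are the brightest probe set of each gene and small brown symbols its others, diamonds are probe sets that can match several transcripts, and open symbols are within background in at least 1 group. The probe sets of Mcm7 all lie above 0, while those of Mcm6, Cdc45 and E2f1 lie on both sides.

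The 11 genes with an E2F match in the promoter window all had differences above 0, with a median of 0.21 and a range of 0.02 to 0.50, but this count rested on single arrays and settings. It was 8 of 11 without Tead1KO replicate 2 (Mcm6, Mcm7 and Pola1 below 0) and 9 of 11 without Flox replicate 1. It was also 9 of 11 with the hybridization controls as a covariate (Mcm3 and Hells below 0) and after quantile normalization or median centring (Pola1 and Uhrf1 below 0). Of the 14 with a window and no match, 8 lay above 0 and the median was 0.04. Among array genes outside the replication lists, 39.1% of 514 with a match lay above 0 (median -0.06), against 48.2% of 13762 without (median -0.01). No test was made of this, and none of the 25 genes passed on its own.

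Of 79 measured genes from a list of other replication genes, 0 passed in either direction, with 47 above 0 and a median of 0.04, which was -0.02 after median centring, -0.02 without Tead1KO replicate 2 and -0.0044 without Flox replicate 3. At an unadjusted p under 0.05, 4 were above 0 and 0 below (5.06%, against 7.41% of all genes). Rpa2, a subunit of the single-strand binding protein RPA, read 7.10, 7.26 and 7.17 in Flox and 7.78, 7.86 and 7.64 in Tead1KO. The groups were well apart, and its difference of 0.58 (SE 0.15, interval 0.23 to 0.94, limma adjusted p = 0.270) had the smallest unadjusted p of both lists. Samhd1, which breaks down deoxynucleotides, differed by 0.43 (limma adjusted p = 0.613). Shmt1, a folate enzyme that feeds thymidylate synthesis, differed by 0.67 (limma adjusted p = 0.652), with Tead1KO replicate 2 inside the Flox range. Asf1b, a histone chaperone of dividing cells, read 7.28 in all 3 Flox arrays and 8.24, 7.60 and 7.52 in Tead1KO (difference 0.50, limma adjusted p = 0.664). Tead1KO replicate 2 was the highest array in 31 of the 79 (39.2%) and in 11 of the 31 genes (35.5%), against 19.9% of all genes. Replicate 3 was the lowest in 36 of the 79 (45.6%) and in 12 of the 31 (38.7%), against 37.8% of all genes.

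Markers of cell division and of other cell types were read beside these genes. These lists were read in the reported fit only. Of 15 G2 and M phase genes, 15 lay above 0 with a median of 0.50, and 0 passed. An unadjusted p under 0.05 was found in 5 (33.3%, against 7.41% of all genes). Aurkb and Bub1 read within background in both groups. The mean of the 15 relative to Flox was 0.34 to 0.65 in the Tead1KO arrays and -0.17 to 0.20 in Flox. Of 5 beta cell markers, 4 lay below 0 and 0 passed (smallest limma adjusted p 0.056). Slc2a2 (-0.82), Ucn3 (-0.95) and Nkx6-1 (-0.95) had an unadjusted p under 0.05 and no overlap. They are 60% of the list, against 7.41% of all genes at that p and 13.1% without overlap. The list means were -0.71 to -0.34 in Tead1KO and -0.08 to 0.08 in Flox. Of 5 fibroblast and pericyte markers, 5 lay above 0 and 0 passed, with means of 0.14 to 0.68 in Tead1KO and -0.10 to 0.10 in Flox. Dcn (1.11) and Col1a2 (0.62), 40% of this list, had an unadjusted p under 0.05 and no overlap. In the macrophage list the means were -0.47 to 0.33 in Tead1KO and -0.28 to 0.16 in Flox, lowest in Tead1KO replicate 3 and highest in replicate 2. The means of endothelial markers were -0.04 to 0.13 in Tead1KO and -0.02 to 0.02 in Flox. Medians were 0.00 for alpha cell, -0.01 for delta and PP cell, -0.18 for duct cell, -0.05 for lymphocyte and 0.19 for Schwann cell markers, and 0 genes of these lists passed. Among them, only the lymphocyte gene Cd79a (-0.85) had an unadjusted p under 0.05, with no overlap (25% of 4 lymphocyte genes). The part of these cell types in the differences of the replication genes was not tested.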

How the data were processed

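Per the submitters' processing notes the authors used Affymetrix Expression Console; the sources used here give no version, background correction or normalization. The authors deposited log2 signals of the 6 arrays, a scale inferred from their range. Of 45101 probe sets, 64 controls were left out and 34945 had a single gene symbol. Each of 18193 genes was read by its brightest such probe set (by the 6-array mean), with no filter on dim signal and no pseudocount. Tead1KO was tested against Flox in R 4.3.3 with limma 3.58.1 (lmFit, eBayes with trend=TRUE, no covariate), with Benjamini-Hochberg adjustment over all genes and calls at an adjusted p under 0.05. SE and 95% intervals are moderated. The procedure was tested on simulated data. With arrays, their number limits the precision.

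The 31 members, the role groups, the list of 82 other replication genes (79 measured), the marker lists and the alternatives were chosen with earlier results of these data known. Named genes were all members and the 4 other replication genes with the smallest unadjusted p; markers served only to describe the tissue. Role groups and lists are described by counts and medians, with no set test. Promoter windows are from RefSeq, matched by gene identifier. Alternatives changed the dim-signal filter, the normalization, the variance prior, the choice of probe set, array quality covariates, the replicate block, the threshold and the arrays included. A block by control signal was added after seeing the data.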

Additional observations from a re-analysis of the deposited data

How the results depend on the processing

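The count of 0 replication genes and 0 other replication genes past the adjusted threshold was the same under every alternative at an adjusted p under 0.05. The threshold of 0.1 was tried on the reported fit, where both counts were 0; without Tead1KO replicate 2, Fen1 had an adjusted p of 0.0661. The number of replication genes at an unadjusted p under 0.05, 0 as reported, was 2 with quantile normalization and with the replicate block, 1 without the variance trend, with probe sets averaged and with the control level as a block (added later), 6 after adding the hybridization controls and 3 after adding the actin 3'/5' difference to the fit, and 0 to 7 when 1 array was left out. No label says that the replicate numbers pair the samples. Deviations of same-numbered arrays correlated by 0.056, 0.303 and -0.175, and those of differently numbered arrays by -0.389 to 0.330. With so few arrays these values cannot settle the question. The replicate block gave 97 genes called over all genes, against 94. Over all genes, quantile normalization gave 152 calls, centring on array medians 58, the hybridization covariate 247, and the count was 12 to 303 when 1 array was left out.

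The median of the 31 genes, 0.11 as reported, ranged from 0.035 with probe sets averaged (all genes 0.011) to 0.187 with the hybridization covariate, and was 0.053 with median centring. The MCM and polymerase median was 0.065 without _x_at and _s_at probe sets, 0.317 with the actin covariate and -0.055 to 0.274 when 1 array was left out. The nucleotide synthesis and repair median was 0.176 with probe sets averaged and 0.232 to 0.406 when 1 array was left out. The difference of these medians was 0.029 with the actin covariate and -0.414 to 0.0012 when 1 array was left out. Single genes changed the side of 0 on which they lay in 0 to 8 cases per alternative, most often without Tead1KO replicate 2. The 3 arrays per group and signals near background limit what could be detected.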
